A study of Mus musculus with 20 samples.

Results

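The 6 genes described here encode the 14-3-3 proteins beta (Ywhab), epsilon (Ywhae), gamma (Ywhag), eta (Ywhah), theta (Ywhaq) and zeta (Ywhaz). They were chosen by symbol, with earlier results of these data known. All 6 were measured among the 14924 genes counted in total and polysomal RNA and among the 9621 genes with counted 3′ ends. In the table of RNA sites bound by HuD, 4 of the 6 were listed among 1435 genes. The remaining gene of the family, Sfn (14-3-3 sigma), was placed in a list of 35 genes of 14-3-3 partners, described after the members.

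14-3-3 proteins form dimers that grip short phosphorylated motifs on other proteins, and in doing so they hold a partner in the cytoplasm, block its active surface or keep it folded. They are among the most abundant soluble proteins of the brain, and kinases of the Raf family, the cell death protein Bad and FoxO transcription factors are classical clients. HuD (ELAVL4) is a neuronal RNA-binding protein of the ELAV family that recognises U-rich and AU-rich stretches, mostly in 3′ UTRs, and is known for its effects on the stability, polyadenylation and translation of bound mRNAs.

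NSC-34 is a mouse hybrid line of motor neuron-like cells. Its Trex derivative carries a Tet repressor, and Trex-HuD cells carry in addition a lentiviral, tetracycline-inducible human HuD with a His-HA tag. For CRAC, in which tagged HuD is UV-crosslinked to RNA and purified, 3 libraries from Trex-HuD cells and 3 from control Trex cells were made, both after 10 µg/ml tetracycline for 24 h. Total RNA (RNA-Seq), polysomal RNA (POL-Seq) and 3′ ends were sequenced from Trex-HuD cells after 2 µg/ml tetracycline for 48 h, and from control cells for which the labels give no treatment, with 2, 2 and 3 libraries of each kind. All cells of the HuD groups carry mouse Elavl4 besides the human transgene, and the tagged protein is overexpressed, so the groups compare more with less HuD. Outside CRAC, the labels give tetracycline for the HuD groups only and do not say which line the control cells were. In those libraries, effects of HuD, of the drug and of the line cannot be told apart.

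Library totals ran from 21296012 to 36284728 counts for total and polysomal RNA and from 12986862 to 15751036 for 3′ ends. As a check of the labels, Elavl4 was at 78.3 and 97.4 CPM (counts scaled to the library total) in total RNA of control cells and at 237 and 212 CPM after induction, and both HuD libraries lay above both controls (log2 change 1.35, SE 0.15, adjusted p = 0.0866 by the quasi-likelihood test of edgeR). In 3′ ends Elavl4 was at 78.1, 38.5 and 78.1 CPM in control and at 54.6, 31.4 and 52.4 CPM in HuD cells, with overlap (log2 change -0.49, SE 0.29, adjusted p = 0.92 by edgeR). These are counts at known mouse ends, whether they include the transgene was not tested, and they give no check of the 3′ end labels. Of 11 motor neuron markers, 8 had at least 1 CPM in total RNA, Chat was at 0.51 CPM, and Slc5a7 and Mnx1 were not analysed here. Of 8 markers of astrocytes, oligodendrocytes, microglia and endothelium, 4 had counts and 2 reached 1 CPM, the highest at 7.26 CPM, and Aqp4, Mog and the microglial Cx3cr1 and Aif1 were not analysed here.

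HuD was crosslinked to the 3′ UTRs of Ywhaz, Ywhag, Ywhah and Ywhae, at 19 windows of 7 nt in all. No window was listed for Ywhab or Ywhaq. The windows below were chosen as the most covered of each gene, together with those that lie nearest to a 3′ end or hold the letters AUUUA. Capitals mark the window, lower case the 11 nt on either side, each sequence is the transcript strand read 5′ to 3′ from GENCODE vM21 transcripts (GRCm38), and the number after each gene is the distance in nt of the window's first base from the stop codon.
Ywhaz 646, chr15:36772066-36772072, minus strand: uuguauuuaaaUGUUUUAggcaaucuaag
Ywhaz 606, chr15:36772106-36772112, minus strand: accugcuguuuGCUUUCAuuauuuuugcu
Ywhaz 269, chr15:36772443-36772449, minus strand: uuuggcauaguACUUUUGguacauugugg
Ywhaz 1000, chr15:36771712-36771718, minus strand: aguggaauaaaAGUUUUAugaauggacuu
Ywhaz 1142, chr15:36771570-36771576, minus strand: uuugaaugcagAGUUUAUcauaaaaaaaa
Ywhag 2504, chr5:135908485-135908491, minus strand: ccauucuuagcAGUUUCCucagugaugga
Ywhag 2250, chr5:135908739-135908745, minus strand: augcaguucuaUAUUUUGuuuuucagggg
Ywhah 628, chr5:33027823-33027829, plus strand: uuuuuuguaacUCUUUGGcuauuguucuu
Ywhah 611, chr5:33027806-33027812, plus strand: uaagaaucaugGAUUUAUuuuuuguaacu
Ywhae 260, chr11:75764932-75764938, plus strand: uacuggucccaGCUUUAGguucuuuacga
Ywhae 1127, chr11:75765799-75765805, plus strand: uagcaacacaaUAUUUAUguuuaaauuua

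All 19 windows had UUU at positions 3 to 5, as did 97.2% of the 7-nt windows on protein coding genes, which the study's scoring selected by sequence. The base before that core was A in 6, C in 5 and G in 8 of the windows, and over all windows on protein coding genes with the core it was A in 31.2%, C in 40.9% and G in 28.0%. AUUUA, the element of classical AU-rich mRNAs, stood within 2 of the 19 windows, in Ywhah 611 and Ywhae 1127, and within 5.77% of the 2480 windows of 7 nt on protein coding genes. Only the transcript strand was searched, and the letters AUUUA overlap the UUU core.

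Ywhaz had the most reads of the 4, with 415 pooled reads and 58 deletions, the mark of a crosslinked base, summed over 10 windows. A read that spans neighbouring windows may count in each, so such sums are window coverage and not numbers of separate reads. It ranked 77th by reads, 15th by windows and 41st by deletions among 1299 protein coding genes with a window, for which the median was 27 reads and 1 window. The windows at 646 and 606 nt after the stop codon had 117 and 92 reads, with 6 and 3 deletions. The window at 269 nt had fewer reads, at 49, and the most deletions of any of the 19, at 14. The other 7 windows of Ywhaz had between 8 and 39 reads. Along the 3′ UTR, 4 windows began within the first 269 nt and 2 at 606 and 646 nt, and the 4 that followed were scattered, with at most 24 reads each.

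Ywhag had 210 reads over 3 windows, of which 98 lay at 2504 nt and 70 at 2250 nt, close to the end of the longest 3′ UTR of the family. Its windows had few deletions, at 3, 4 and 3. Ywhah had 151 reads over 3 windows that begin between 581 and 628 nt after the stop codon. The last of these, at 628 nt, held 104 reads and 11 deletions. Ywhae had 40 reads over 3 windows of 23, 11 and 6 reads, and stood at rank 524 by reads. By deletions the order changed, with Ywhaz at 58, Ywhah at 17, Ywhae at 15 and Ywhag at 10.

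Control Trex cells had 0 reads at all 19 windows, and 3.70% of the windows on protein coding genes had any. The authors' combined p-value, which was not adjusted, was under 0.05 at 3 of the 19 windows, compared with 20.9% of all windows on protein coding genes. The combined p-value was 0.0201 at Ywhah 628, 0.0278 at Ywhaz 269 and 0.0415 at Ywhaz 646, and it describes pooled reads and not replicates. Replicates were pooled before deposit and the depth of the CRAC libraries is unknown, so reads per window have no replicate error. Every listed window had at least 6 reads and 3 deletions, and listing also rested on the sequence score and the control reads, so the absence of a window sets no limit on the reads of Ywhab and Ywhaq.

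**Figure D1:**
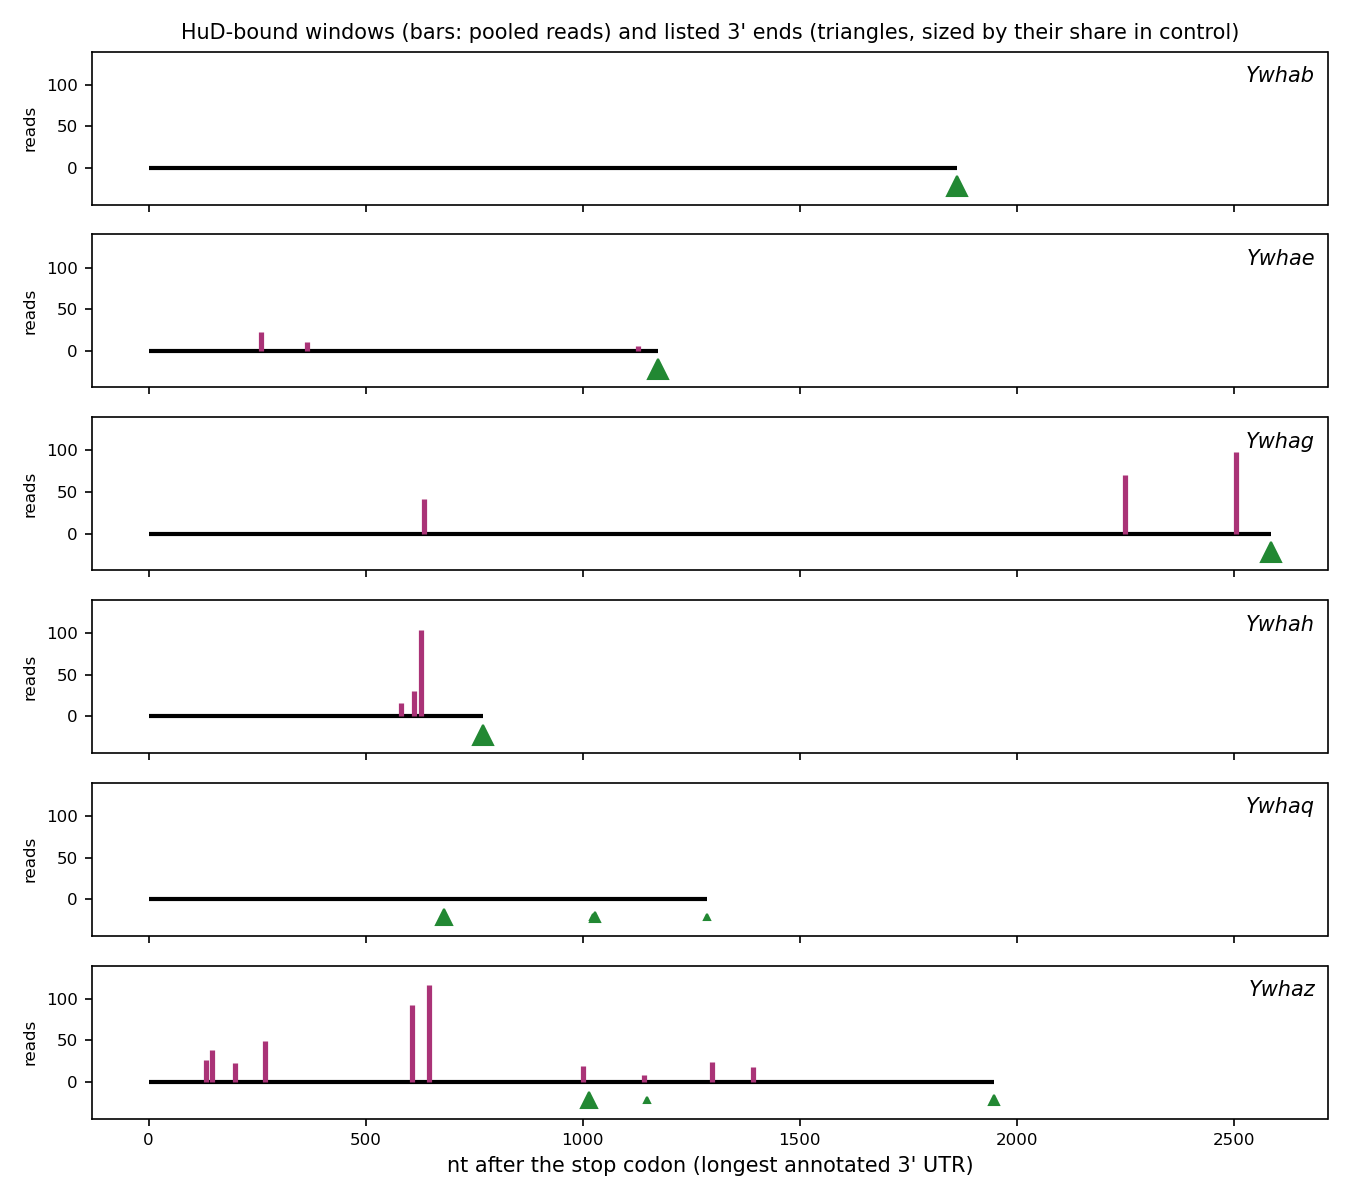
HuD-bound windows along the 3′ UTR of each 14-3-3 gene. The x axis gives nt after the stop codon on the longest annotated 3′ UTR (black line), bars give pooled CRAC reads in HuD cells, and green triangles mark the listed 3′ ends, sized by their share of the gene's 3′ end counts in control cells. Ywhaz has 10 windows, Ywhae, Ywhag and Ywhah have 3 each, and Ywhab and Ywhaq have none.

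Binding in 4 of 6 genes stood beside 9.87% of the 12953 protein coding genes with RNA-Seq counts. It also stood beside 30.1% of the 1443 genes at or above Ywhaq in CPM of total RNA, where Ywhaq was the lowest member. In 3′ end counts of control cells Ywhaq was the highest member, at 870 CPM. The share by that measure was not tested. Per CPM of total RNA in control cells, Ywhaz had 1.03 reads, followed by Ywhah at 0.47, Ywhag at 0.39 and Ywhae at 0.070, with a median of 0.29 over 1279 targets with counts. This order depends on the measure of level, since per 3′ end CPM, a comparison chosen after seeing the data, Ywhag came first at 0.81 reads, followed by Ywhaz at 0.56, Ywhae at 0.28 and Ywhah at 0.24. By FPKM in total RNA, Ywhae had the highest level and it had the fewest reads of the 4 members with windows. Its 3′ end counts in control cells, at 143 CPM, were the lowest of those 4.

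The longest annotated 3′ UTRs of members with and without a listed window overlapped in the sequence features examined. The longest annotated 3′ UTR was 2586 nt in Ywhag, 1948 nt in Ywhaz, 1863 nt in Ywhab, 1285 nt in Ywhaq, 1173 nt in Ywhae and 771 nt in Ywhah, with a median of 1169 nt over 12297 genes. Uridine made up 35.3% of the 3′ UTR of Ywhaz and 33.5% of that of Ywhaq, and the lowest share was 29.9%, in Ywhag, which had 3 windows. Every member held AUUUA, as did 86.8% of 3′ UTRs of at least 771 nt, searched on the transcript strand with overlapping matches counted. Each member held it at least 2 times, and the share of all 3′ UTRs with as many was not computed. Per kb, AUUUA was found 3.41 times in Ywhae, 3.11 in Ywhaq, 3.08 in Ywhaz, 2.59 in Ywhah, 1.61 in Ywhab and 1.55 in Ywhag, with a median of 1.27 over all genes. Ywhaq, with no window, stood between members with windows in both measures. These features describe the longest form only. In control cells, 70.0% of the 3′ end counts of Ywhaq lay at 680 nt and 2.03% at 1285 nt. For Ywhaz, 67.0% lay at 1014 nt. The features of the shorter forms were not tested.

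More than 1 end was listed for Ywhaz, Ywhaq and Ywhag. In Ywhaz, 3 ends were listed, at 1014, 1149 and 1948 nt after the stop codon. The end at 1014 nt took 66.0%, 65.7% and 69.5% of the gene's 3′ end counts in the control libraries and 69.0%, 67.2% and 68.8% in the HuD libraries, so the ranges overlapped. The end at 1948 nt took 31.9% ± 2.09 in control and 30.8% ± 1.03 in HuD cells (SD, n = 3). The middle end held 1.07% ± 0.15 and 0.90% ± 0.35. Of the 10 Ywhaz windows, 7 lie before the first end and are shared by all listed forms, and the other 3 lie beyond it, in RNA that 32.3% or less of the 3′ end counts could contain. The window at 1000 nt ends 8 nt before the first end and the window at 1142 nt ends 1 nt before the second.

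In Ywhaq, the end at 680 nt took 66.9%, 72.8% and 70.4% of counts in control and 65.6%, 70.2% and 64.0% in HuD libraries. Ends at 1024 and 1027 nt, whose reads cannot be cleanly split, took 3.65% ± 0.69 and 24.3% ± 2.28 in control and 3.97% ± 0.59 and 27.3% ± 2.45 in HuD cells. The end at 1285 nt took 2.03% ± 0.042 and 2.19% ± 0.17. The proximal share was lower by 3.45 percentage points on average in HuD cells, and 1 of the 3 HuD libraries lay within the span of the controls and 2 below it. Between same-numbered libraries, which deviated together, it was lower with HuD in 3 of 3 pairs. The share at 1027 nt was 26.6%, 22.1% and 24.2% in control and 28.0%, 24.5% and 29.2% in HuD libraries, higher in 3 of 3 pairs. With the replicate number as a block, the end at 1027 nt had an unadjusted p of 0.0772 and Ywhaq as a gene one of 0.31 (edgeR, adjusted p = 1.00 for both), so neither passed. The end at 680 nt, with an unadjusted p of 0.42 by edgeR in the same fit, did not pass either. The share of all ends that moved alike in 3 of 3 pairs was not computed.

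Ywhag had a main end at 2586 nt with 98.3% ± 0.30 of counts in control and 98.2% ± 0.023 in HuD cells, the rest being at an end upstream of the stop codon. Ywhab, Ywhae and Ywhah had 1 listed end each, so that end choice could not be tested in them. The end choice of the other 3 did not differ past the threshold (edgeR diffSpliceDGE with Simes' method, unadjusted p = 0.69 for Ywhaq, 0.88 for Ywhaz and 0.99 for Ywhag, adjusted p = 1.00 for each). None of the 3 had an adjusted p under 0.05, beside 0.0301% of 3317 genes (1 gene), and none an unadjusted p under 0.05, beside 0.151% (5 genes).

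**Figure D2:**
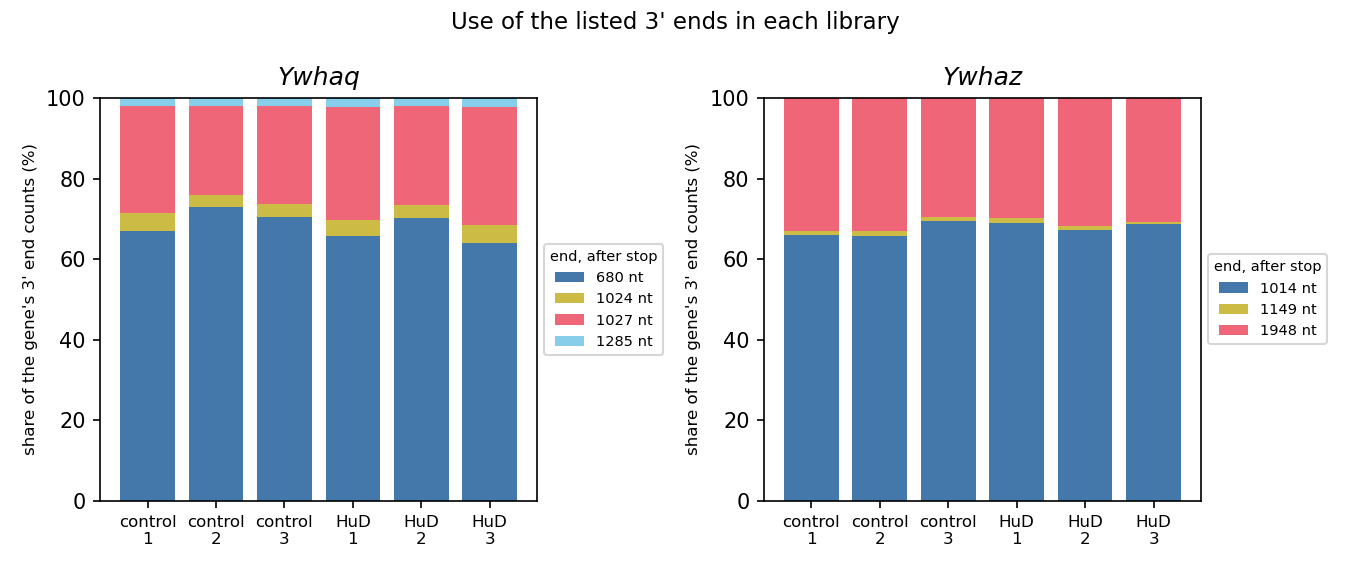
Share of each gene's 3′ end counts, in percent, at each listed end of Ywhaq and Ywhaz, with a stacked bar per library (3 control, 3 HuD) and ends named by their distance from the stop codon. The end at 680 nt of Ywhaq and the end at 1014 nt of Ywhaz hold most of the counts in every library.

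All 6 genes were well expressed. Levels per length (FPKM, CPM divided by the kb of merged exons) in the 4 total RNA libraries were highest for Ywhae, from 195 to 236 FPKM. Ywhab followed at 112 to 127 FPKM, then Ywhag at 91.6 to 105, Ywhaz at 94.3 to 102, Ywhah at 84.5 to 88.6 and Ywhaq at 46.4 to 54.7 FPKM. Neighbours in this order did not overlap across the libraries, except Ywhag and Ywhaz, whose ranges did. By mean FPKM, Ywhae stood at rank 189 and Ywhaq at rank 1104 of 12929 protein coding genes. The middle of the order depends on the length used, since with the longest transcript the means were 260 FPKM for Ywhae, 156 for Ywhag, 148 for Ywhah, 135 for Ywhab, 121 for Ywhaz and 69.8 for Ywhaq.

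**Figure D3:**
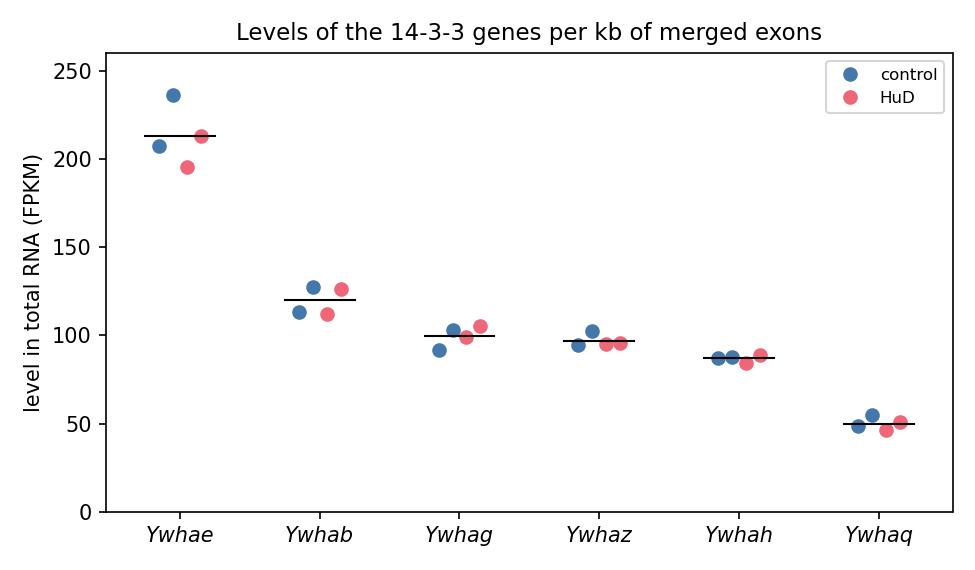
Level of each 14-3-3 gene in total RNA in FPKM, with a point per library (blue, control, and red, HuD) and a line at the mean of the 4 libraries. Ywhae lies highest, between 195 and 236 FPKM, and Ywhaq lowest, between 46.4 and 54.7 FPKM.

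Reads of Ywhaq and Ywhaz may be shared with near-identical copies. A search of annotated transcripts for matches of at least 100 nt and 90% identity found 10 other genes for Ywhaq, most of them processed pseudogenes, 2 for Ywhaz and 1 for Ywhah, and none for Ywhab, Ywhae and Ywhag. For Ywhaq these included a stretch of 435 nt identical to an isoform of Cdk5rap2. Of the copies, Cdk5rap2 at 55.0 CPM, Gm4419 at 2.52 CPM and Gm4202, a copy of Ywhaz, at 1.22 CPM had counts of their own. Among themselves the coding sequences were 60.1% to 78.6% identical, the closest pair being Ywhag and Ywhah with a longest shared run of 30 nt. How far reads were split between copies was not tested.

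The first question is how the 6 mRNAs are distributed over polysomes. In control cells, all 6 had a higher mean CPM in polysomal than in total RNA, relative to the average gene, and no difference passed the test. Of all 14906 genes tested, 51.7% had a positive log2 ratio. The ratios of the 6 come from the same control libraries, so their shared direction is not 6 separate observations. Ywhaq was at 148 and 167 CPM in total RNA and at 170 and 203 CPM in polysomal RNA, without overlap (log2 ratio 0.24, SE 0.11, unadjusted p = 0.0513, adjusted p = 0.465 by edgeR). Ywhaz was at 388 and 421 CPM in total and at 448 and 476 CPM in polysomal RNA, also without overlap (log2 ratio 0.19, SE 0.085, unadjusted p = 0.050, adjusted p = 0.465).

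Ywhae was at 532 and 607 CPM in total and at 617 and 700 CPM in polysomal RNA, again without overlap (log2 ratio 0.21, SE 0.11). Ywhah was at 323 and 326 against 337 and 357 CPM (log2 ratio 0.10, SE 0.081). Ywhab, at 384 and 430 against 427 and 501 CPM, overlapped (log2 ratio 0.19, SE 0.11). Ywhag had the smallest ratio, at 504 and 567 against 543 and 563 CPM (log2 ratio 0.05, SE 0.094).

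The median log2 ratio of the 6 was 0.19, beside 0.01 over all 14906 genes tested. Groups did not overlap, with polysomal RNA higher, for 4 of the 6 members and for 18.9% of all genes. None of the 6 had an adjusted p under 0.05, as against 0.174% of all genes (26 genes, all lower in polysomes), or an unadjusted p under 0.05, as against 10.7%. DESeq2 called 0 of the 6 and 67 genes in all at the adjusted threshold. At an unadjusted p under 0.05 it had 2 of the 6, beside 1332 of 14924 genes. By edgeR there were 2 of the 6 with RLE size factors (1630 of 14906 genes) and 1 with no filter (1600 of 14924). With the replicate number as a block there were 4 (3071 of 14906), and with only the 4 libraries compared 0 (746 of 14673). The result rests on 2 control libraries of each kind. Without replicate 1 of the polysomal control libraries, the log2 ratio of Ywhaq was 0.36 with an adjusted p of 0.0395, and 2145 genes in all passed. Without replicate 2 it was 0.10 with an adjusted p of 0.98.

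**Figure D4:**
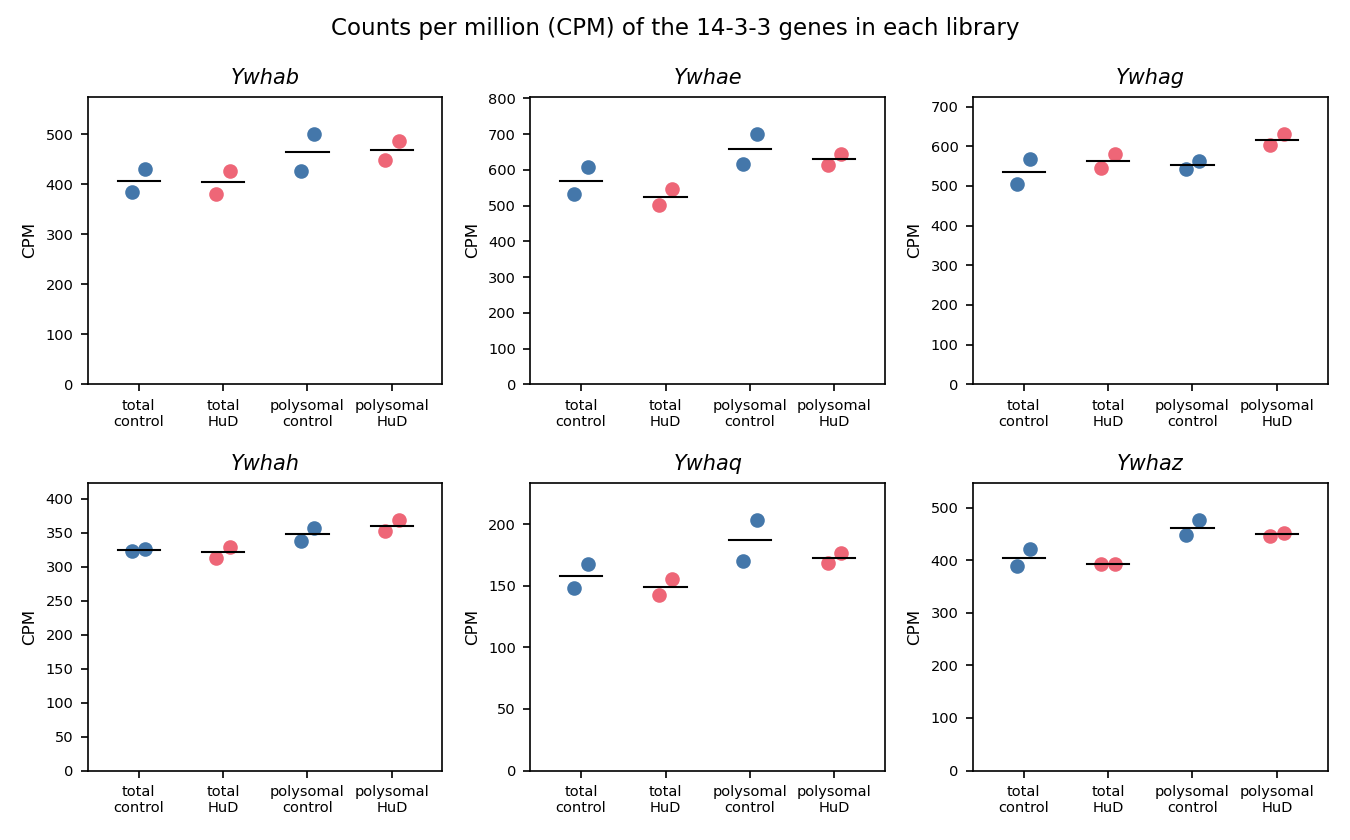
CPM of each 14-3-3 gene in total and polysomal RNA, with a point per library (blue, control, and red, HuD, 2 of each) and a line at the mean. Polysomal libraries of Ywhae, Ywhah, Ywhaq and Ywhaz lie above the total RNA libraries of the same cells, in control and in HuD cells. Those of Ywhab and Ywhag do so in HuD cells only. The 2 HuD polysomal libraries of Ywhag, at 603 and 631 CPM, lie above the other libraries of that gene.

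The second question is whether these mRNAs differed between HuD-induced and control cells. In total RNA they did not do so detectably, and 0 of the 6 members had an adjusted p under 0.05 (edgeR), as had 0% of 14906 genes. DESeq2 called 0 of the 6 and 1 gene in all. At an unadjusted p under 0.05, there were 0 members, beside 2.64% of all genes. The libraries of the 2 groups overlapped for each member, whereas 31.9% of all genes did not overlap. Ywhae had the largest difference, from 532 and 607 CPM in control to 501 and 547 CPM in HuD cells (log2 change -0.12, 95% confidence interval -0.36 to 0.12, unadjusted p = 0.29). Ywhaz, with the most CRAC reads, went from 388 and 421 to 393 and 394 CPM (log2 change -0.04, interval -0.23 to 0.15). The other 4 had log2 changes between -0.09 and 0.07.

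Fewer cells with an mRNA and less of it per cell cannot be told apart in such bulk samples. The intervals bound what could have been missed, and over the 6 members the lowest limit in total RNA was -0.36 and the highest 0.28 on the log2 scale. In simulated data of this size, 91% of 200 genes changed 2-fold in total RNA were recovered. With 200 true changes the adjusted threshold is easier to pass than in the real libraries, where Elavl4, 2.55-fold higher, was not called, so this share is no measure of what could have been missed there.

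In polysomal RNA, no member passed the test. Ywhag was at 543 and 563 CPM in control and at 603 and 631 CPM in HuD cells, so the groups did not overlap. It was the 1 member of 6 without overlap, and 14.1% of all genes were likewise higher without overlap, so this count is near the background (log2 change 0.16, SE 0.094, interval -0.05 to 0.37, unadjusted p = 0.13, adjusted p = 0.97). Ywhaq had the largest difference in the other direction, from 170 and 203 to 169 and 176 CPM with overlap (log2 change -0.11, SE 0.11). Ywhaz went from 448 and 476 to 447 and 452 CPM (log2 change -0.04), and Ywhae from 617 and 700 to 614 and 645 CPM (log2 change -0.06). Ywhab and Ywhah differed by 0.01 and 0.05 on the log2 scale, and their groups overlapped.

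None of the 6 was called in polysomal RNA by edgeR, as was 0% of all genes, and DESeq2 called 3 genes in all and no member. At an unadjusted p under 0.05 there were 0 members beside 4.17% of all genes. The median log2 change of the members in polysomal RNA was -0.01, and so was that of all genes.

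For translation efficiency, the polysomal over the total RNA level, the test asks whether the change from control to HuD cells differed between the fractions. The log2 change was 0.09 for Ywhag, 0.07 for Ywhah, 0.06 for Ywhae, 0.02 for Ywhab, 0.00 for Ywhaz and -0.03 for Ywhaq, with SEs from 0.11 to 0.16. Each 95% interval included 0, and that of Ywhaz was -0.27 to 0.27. By edgeR, 0 of the 6 were called, as was 0% of all genes, and at an unadjusted p under 0.05 there were 0 members beside 0.979% of all genes. DESeq2 called 0 genes. In simulated data, 41% of 200 genes changed 2-fold were recovered here, fewer than in total RNA. Here too the 200 true changes make the adjusted threshold easier to pass, so this share is no measure of what could have been missed.

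**Figure D5:**
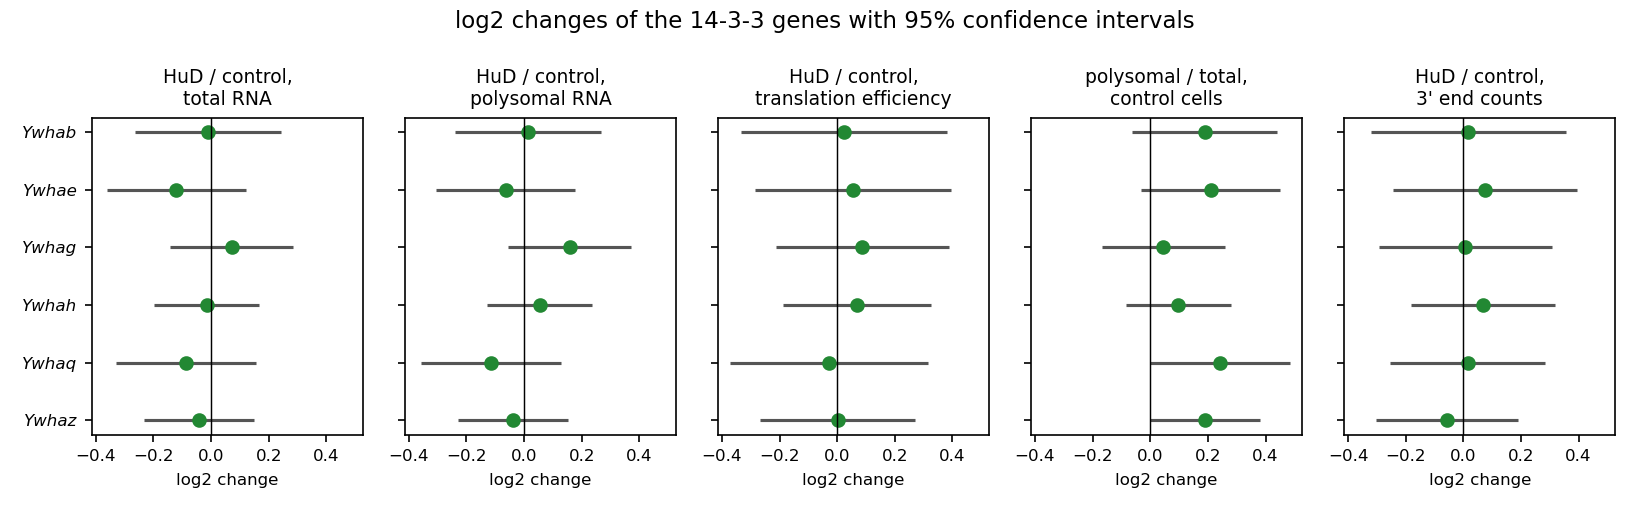
log2 change of each 14-3-3 gene (green points) with its 95% confidence interval (lines) in the 5 comparisons fitted with edgeR, HuD over control in total RNA, polysomal RNA, translation efficiency and 3′ end counts, and polysomal over total RNA in control cells. Every interval includes 0, and the polysomal to total ratios of Ywhaq and Ywhaz lie farthest from it relative to their error.

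The 3′ end libraries gave a second measure of mRNA abundance, from 3 further libraries per group. Ywhaz was at 685, 791 and 733 CPM in control and at 681, 713 and 729 CPM in HuD cells (log2 change -0.06, SE 0.11, interval -0.30 to 0.19). Ywhag was at 250, 296 and 232 CPM in control and at 259, 284 and 239 CPM in HuD cells (log2 change 0.01, SE 0.13). The groups of both genes overlapped.

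Ywhah was at 643, 669 and 588 CPM in control and at 626, 681 and 685 CPM in HuD cells (log2 change 0.07, SE 0.11). Ywhae had a log2 change of 0.08 (SE 0.14), and Ywhab and Ywhaq had 0.02 (SE 0.15) and 0.02 (SE 0.12). The groups overlapped for all 6 members and failed to overlap for 12% of all genes.

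None of the 6 was called in 3′ end counts, beside 0.052% of 9621 genes (5 genes), and none had an unadjusted p under 0.05, beside 5.87%. DESeq2 called 0 of the 6 and 35 genes in all. Same-numbered 3′ end libraries deviated together, and with the replicate number as a block 217 genes were called, but again none of the 6, whose adjusted p ranged from 0.66 to 0.96 in that fit.

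Over the 8 total and polysomal libraries, the gene most like each member in its log2 CPM was Fam126a for Ywhaq (Pearson r = 0.996), Tra2a for Ywhab (0.995), Fam49b for Ywhae (0.994), Nap1l4 for Ywhaz (0.989), Lin7c for Ywhah (0.988) and B4gat1 for Ywhag (0.981), out of 9702 genes with a mean of at least 10 CPM. These are the highest of many values over few libraries of 4 groups, and describe likeness only. Among the members, Ywhae and Ywhaq were most alike (r = 0.983), and Ywhag was least like the rest, with r from 0.42 to 0.71.

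Of the 35 listed partners, 32 had counts in total and polysomal RNA and 27 in 3′ ends. No partner had an adjusted p under 0.05 in the main fit of any of the 5 comparisons, and those with the smallest unadjusted p are given here. Mapt, the microtubule-binding protein tau, was at 65.4 and 66.4 CPM in total RNA of control cells and at 79.1 and 83.6 CPM in HuD cells (log2 change 0.30, SE 0.081, adjusted p = 1.00 by edgeR). In polysomal RNA it had a log2 change of 0.36 (SE 0.081, adjusted p = 0.97), and in 3′ ends 0.47 (SE 0.18, adjusted p = 0.82), or 0.46 with an adjusted p of 0.026 with the replicate number as a block. That blocked fit called 217 of 9621 genes and 1 of the 27 partners.

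Sfn, the 14-3-3 gene best known from epithelia, was barely expressed. It was at 0.90 and 0.86 CPM in total RNA of control cells and at 1.46 and 1.86 CPM in HuD cells, without overlap, as was so, with HuD higher, for 15.1% of all genes (log2 change 0.92, SE 0.29, adjusted p = 1.00). In polysomal RNA its log2 change was 0.84 (SE 0.29, adjusted p = 0.97), and in 3′ ends 0.54 (SE 0.28, adjusted p = 0.88).

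In translation efficiency the smallest unadjusted p among partners was that of Akt1s1, an mTORC1 substrate, with a log2 change of 0.35 (SE 0.27), followed by Cdkn1b, a cell cycle inhibitor, with 0.14 (SE 0.14), both with an adjusted p of 1.00. Akt1s1 rests on its polysomal control libraries, at 88.7 and 52.6 CPM, and without the first of these its log2 change was 0.78 with an adjusted p of 0.0391 by edgeR, in a fit that called 0.315% of 14924 genes (47 genes). In polysomal RNA it was then 0.72 with an adjusted p of 0.0125, and 2.49% of genes were called (372 genes). Leaving out the same library also brought the polysomal to total ratios of 3 of the 32 partners past the threshold, Akt1s1 (-0.68), Bad (-0.35) and Pdpk1 (0.33), as it did for 14.4% of all genes. Between polysomal and total RNA of control cells, Cdc25b, a cell cycle phosphatase, had a log2 ratio of -0.30 (SE 0.11, adjusted p = 0.46) and Braf, a Raf kinase, one of 0.19 (SE 0.084, adjusted p = 0.46). The median log2 ratio of the 32 partners was -0.01, and 14 of them (43.8%) had a positive ratio, beside 51.7% of all genes. Windows bound by HuD were found on 6 of the 32 partners (18.8%), beside the 9.87% of protein coding genes with counts and 30.1% of those at or above Ywhaq in CPM of total RNA. The most covered were Pdpk1, the kinase that activates Akt, with 177 reads at 1 window, Cfl1, the actin-severing protein cofilin, with 175 reads over 2, and Ndel1, a dynein regulator, with 43 over 2, each below Ywhaz and Ywhag in reads.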

How the data were processed

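The 20 libraries comprised RNA-Seq, POL-Seq, 3′ end and CRAC libraries, grouped as labelled. The members and gene lists were chosen with earlier results of these data known. Per the submitters' processing notes, reads were aligned to GRCm38.p4 with STAR 2.5.3a or, for CRAC, TopHat2 2.0.14. As deposited, the gene table holds raw counts of reads, and the 3′ end table raw counts of reads at known ends. For CRAC, the authors pooled replicates, penalized control reads and deposited per window the coverage as a signal in reads, the count of deletions, an unadjusted combined p-value and a score against their weight matrix. CRAC lines of 1 position were reduced to 1 window with the highest coverage, and window positions are those where the listed letters match the GENCODE vM21 transcript, which the listed coordinates miss by 1 or 2 nt. Of 18577 listed 3′ end lines, 14536 were unique ends.

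Counts were fitted in R 4.3.3 with edgeR 4.0.16 (TMM, filterByExpr, quasi-likelihood test, Benjamini-Hochberg over all genes) to all 8 RNA-Seq and POL-Seq libraries, or to the 6 of 3′ ends, and end choice was tested with diffSpliceDGE. CPM and FPKM were computed here, FPKM with GENCODE vM21 exon lengths. Alternatives were DESeq2 1.42.0, other size factors, no filter, a replicate block, fewer libraries, merged ends (20 nt) and other lengths. Copies were sought with blastn 2.17.0+, and other steps used Python 3.11.15. The fits were tested on simulated data. Same-numbered 3′ end libraries paired (r = 0.50, 0.78 and 0.63 of deviations from group means), as judged from the data. Same-numbered RNA-Seq and POL-Seq libraries also deviated together. Their r ran from 0.30 (polysomal control with total HuD) to 0.66 (polysomal control with total control). With 2 libraries per group, both numbers give the same r. The labels do not say that numbers mark shared cultures, and the main fits did not use the number. The genes named are the members, Elavl4, the most similar gene of each member, and partners past the threshold or, where none was, the 2 with the smallest unadjusted p in each comparison and the 3 with the most CRAC reads. Values per library have errors from 2 or 3 libraries, which the study calls biological replicates. No column of per-sample values was left out.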

Additional observations from a re-analysis of the deposited data

How the results depend on the processing

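Under other size factors, no filter, DESeq2, the replicate block, fits on the 4 libraries compared and merged ends, no member passed an adjusted p of 0.05 in any comparison. The counts of genes called in the whole table moved more. DESeq2 called 1 gene in total RNA, 3 in polysomal RNA, 67 between polysomal and total RNA (26 by edgeR) and 35 in 3′ ends (5 by edgeR). With the replicate number as a block, 41 genes were called between polysomal and total RNA and 217 in 3′ ends. In that blocked fit Ywhag in polysomal RNA had an unadjusted p of 0.0411 (edgeR, adjusted p = 0.524), and the polysomal to total ratios of Ywhab, Ywhae, Ywhaq and Ywhaz had unadjusted p-values from 0.00728 to 0.0170 (adjusted p from 0.170 to 0.191). Over all 14906 genes, the same fit gave 1386 with an unadjusted p under 0.05 in polysomal RNA and 3071 between polysomal and total RNA. Pairing by number changed no other call of a member. Fits on the 4 libraries compared called 1 gene in total RNA and 0 between polysomal and total RNA, with fewer samples. At an unadjusted p under 0.05 the counts were 394 genes in total RNA, 622 in polysomal RNA, 146 in translation efficiency, 1594 between polysomal and total RNA, 565 in 3′ ends and 5 in end choice. Merged ends gave 0 of 1434 genes in end choice at an adjusted p under 0.05, and 7 at an unadjusted p under 0.05. Windows with a combined p under 0.05 numbered 3 on the members. Deletions in place of reads came to 100 over the members' windows, against 816 reads. In the order of levels, 2 of the 6 members kept their place with the longest transcript, 3 with CPM and 4 in control libraries only. The log2 change in translation efficiency of Ywhaz was -0.0061 with RLE size factors and -0.0063 with DESeq2.

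When each library was left out in turn, the genes called ranged from 0 to 372 in polysomal RNA, 0 to 47 in translation efficiency, 0 to 2145 between polysomal and total RNA, 2 to 14 in 3′ ends and 0 to 1 in end choice. The highest counts came without replicate 1 of the polysomal control libraries, except in 3′ ends, where it was without replicate 2 of HuD, and in end choice. The members called ranged from 0 to 1 between polysomal and total RNA (Ywhaq), and 0 elsewhere. The log2 changes below turned in direction, with adjusted p-values of at least 0.649 by edgeR. In total RNA they ranged from -0.099 to 0.073 for Ywhab, -0.012 to 0.16 for Ywhag, -0.051 to 0.019 for Ywhah, -0.17 to 0.0028 for Ywhaq and -0.099 to 0.018 for Ywhaz. In polysomal RNA they ranged from -0.097 to 0.14 for Ywhab, -0.15 to 0.037 for Ywhae, -0.24 to 0.024 for Ywhaq and -0.083 to 0.010 for Ywhaz. In 3′ ends they ranged from -0.094 to 0.14 for Ywhab, -0.021 to 0.17 for Ywhae, -0.066 to 0.11 for Ywhag and -0.051 to 0.076 for Ywhaq. In translation efficiency they ranged from -0.085 to 0.15 for Ywhab, -0.043 to 0.15 for Ywhae, -0.0017 to 0.17 for Ywhag, -0.15 to 0.11 for Ywhaq and -0.058 to 0.059 for Ywhaz. The polysomal to total ratio of Ywhag ranged from -0.037 to 0.13. Where a library was left out, the lone library of its group was taken to vary like the others. The cause of these shifts was not tested.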

Other observations

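The 6 genes stood in another order by 3′ end counts, which are not divided by length, than by FPKM in total RNA. In control cells Ywhaq had the most 3′ end counts, at 870 ± 67.0 CPM (SD, n = 3), followed by Ywhaz at 736 ± 52.8 and Ywhah at 633 ± 41.4 CPM, and these 3 did not overlap across the control libraries. Ywhag was at 259 ± 32.7 CPM, and Ywhae at 143 ± 16.4 and Ywhab at 130 ± 18.2 CPM overlapped. The order of the means was the same in HuD cells, where Ywhaz and Ywhah overlapped. Ywhaq was thus highest by 3′ ends and lowest by FPKM, and Ywhae was highest by FPKM and next to lowest by 3′ ends. The 3′ end table counts reads at known ends, and the part of this in the order was not tested.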
